A study of Mus musculus with 12 samples.

Results

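The genes of cholesterol and fatty acid synthesis that are driven by the sterol regulatory element binding proteins (SREBPs) were followed in 12 RNA sequencing libraries from mouse cells. The 32 genes were taken by symbol, and all 32 were among the 32544 genes of the table and among those with enough counts to be tested. On GRCm38 the 32 genes lie on 15 chromosomes, with 5 on chromosome 19, where Scd1 and Scd2 are close together and so are Fads1 and Fads2. Bone marrow-derived macrophages (BMDMs) were grown for 7 days in medium with 10% foetal calf serum (FCS) and 15% L929-conditioned medium, a source of the macrophage growth factor M-CSF, and RNA was taken 24 h after seeding. NIH/3T3 cells, an established mouse embryonic fibroblast line, were starved in 0.1% FCS and then kept for 72 h in medium that BMDMs had conditioned, itself made with 2% FCS and 15% L929-conditioned medium. Each of the 4 groups, BMDMs labelled WT, BMDMs labelled PHD2cko, fibroblasts in WT medium and fibroblasts in PHD2cko medium, held 3 libraries.

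According to the study's methods the PHD2cko mice carried a floxed gene for PHD2, an oxygen-sensing prolyl hydroxylase, and a Cre recombinase under the lysozyme M promoter, which is active in macrophages and neutrophils and in part of their precursors. The WT mice carried the same Cre, and both genotypes shared a further deletion. The conditioned media of the study were made in normoxia or at low oxygen, and the sources used here do not name which was used for these libraries. Nothing in them says that the 3 libraries of a group came from separate mice or cultures. The p-values therefore measure the spread between libraries, which may be technical. Libraries of both cell types were fitted together, so that spread is shared by BMDMs and fibroblasts. Counts from fits of each cell type alone are given further down and differ.

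SREBPs are transcription factors that are made as precursors in the membrane of the endoplasmic reticulum. When membrane sterol is low, SCAP escorts them to the Golgi, where they are cut and released to the nucleus, and when sterol is plentiful INSIG proteins hold SCAP back. SREBP2, encoded by Srebf2, mainly drives cholesterol synthesis, and SREBP1, encoded by Srebf1, mainly drives the synthesis and desaturation of fatty acids. In macrophages the pathway sets how much sterol is made beside that taken up from lipoproteins, and in fibroblasts it is the classical system in which sterol feedback was worked out.

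Library totals ran from 15516465 to 25199770 counts. Egln1, the gene for PHD2, was at 55.8, 54.7 and 55.5 counts scaled to library size (CPM, counts per 1000000) in the BMDM libraries labelled WT and at 68.8, 68.3 and 71.6 CPM in those labelled PHD2cko. It was higher where the label says deleted (log2 fold change 0.33, SE 0.0527, edgeR adjusted p = 0.00203), and every direction below is that of the label. Whole-gene counts do not show which exons were read, and no values per exon were used. Targets of hypoxia-inducible factor, which PHD2 marks for degradation, were higher under the same label: of 16 well-known targets, a list written with earlier results known, 13 were higher and 0 lower in BMDMs labelled PHD2cko (median log2 fold change 0.55), among them Bnip3 (0.85, SE 0.0732, adjusted p = 1.5e-05), Pdk1 (0.96) and Egln3 (1.96), beside 3.38% of all genes tested higher and 3.35% lower. The first fibroblast library in WT medium stood apart from the other two in its counts: chi-square over degrees of freedom was 24.8 and 26.9 when it was set against them, and 2.35 when they were set against each other.

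The identities of the cells were read from marker lists. The summed level of 23 macrophage markers was 46276 to 53908 CPM in BMDMs, 38.1 to 38.7 CPM in fibroblasts in WT medium and 216 to 909 CPM in fibroblasts in PHD2cko medium. The 15 fibroblast markers summed to 24801 to 28744 CPM in fibroblasts in WT medium and to 31614 to 33248 CPM in PHD2cko medium. In BMDMs they summed to 7.79 to 15.8 CPM. Of the 15, 6 were higher and 1 lower in PHD2cko medium, where 8.93% of all genes tested were higher and 6.75% lower. Fibroblast libraries in PHD2cko medium therefore held RNA of macrophage type, with 22 of the 23 macrophage markers higher than in WT medium.

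To show what the promoters of these genes hold, the bases around the start of transcription were searched. RefSeq promoter windows on GRCm38.p6, 250 bases before to 50 bases after a start, were found for 25 of the 32 genes, in 31 windows. The genes Scd1, Scd2, Sqle, Fads1, Stard4, Fdps and Fdft1 had none and are only named. Both strands were searched for one spelling of the sterol regulatory element, TCACNCCAC, for the core of the NF-Y box, CCAAT, for the Sp1 box GGGCGG and for the E-box CACGTG. No match of one motif shared a base with a match of another among the 100 found. Promoters of Hmgcs1, Mvd and Ebp are shown because these genes were lower in fibroblasts in PHD2cko medium with all libraries. That of Fasn is shown because it did not pass the test there. Without the first WT library Fasn passed and Ebp did not. Each is the 250 bases before the RefSeq start, read 5′ to 3′ on the gene's strand, and capitals mark TCACNCCAC and CCAAT on either strand. They lie at chr13:119690101-119690350, chr8:122443423-122443672, chrX:8193513-8193762 and chr11:120824548-120824797, with Hmgcs1 on the plus strand and the other genes on the minus strand.
Hmgcs1: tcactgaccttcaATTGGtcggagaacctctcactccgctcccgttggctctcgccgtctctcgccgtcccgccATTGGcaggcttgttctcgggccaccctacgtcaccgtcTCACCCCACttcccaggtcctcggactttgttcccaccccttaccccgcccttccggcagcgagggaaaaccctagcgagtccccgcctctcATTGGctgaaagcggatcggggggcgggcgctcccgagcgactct
Mvd: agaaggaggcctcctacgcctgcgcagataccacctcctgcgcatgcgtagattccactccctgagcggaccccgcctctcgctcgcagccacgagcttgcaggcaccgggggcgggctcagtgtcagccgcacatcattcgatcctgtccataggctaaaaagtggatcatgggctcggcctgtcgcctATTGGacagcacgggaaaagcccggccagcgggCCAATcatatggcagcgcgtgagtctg
Ebp: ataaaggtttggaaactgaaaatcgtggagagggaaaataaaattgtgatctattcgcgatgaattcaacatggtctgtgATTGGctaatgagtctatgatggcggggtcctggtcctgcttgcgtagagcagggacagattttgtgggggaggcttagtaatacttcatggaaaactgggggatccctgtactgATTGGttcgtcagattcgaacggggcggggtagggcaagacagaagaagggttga
Fasn: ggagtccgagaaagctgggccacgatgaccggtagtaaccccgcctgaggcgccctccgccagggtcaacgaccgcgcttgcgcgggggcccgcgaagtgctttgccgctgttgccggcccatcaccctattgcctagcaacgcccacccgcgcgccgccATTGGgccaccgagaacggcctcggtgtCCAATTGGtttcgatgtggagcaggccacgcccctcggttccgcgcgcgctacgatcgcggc

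The sterol regulatory element spelled this way was in 1 of the 31 windows, that of Hmgcs1, against 1.24% of the 32851 windows of all genes. CCAAT was in 21 of 31 windows (67.7%, against 37.4% of all windows) and GGGCGG in 23 of 31 (74.2% against 35.7%). CACGTG was in 6 of 31 (19.4% against 7.15%). In the Fasn window CCAATTGG reads as CCAAT on both strands, so its 3 matches of that motif include 2 that overlap. A match of letters is a description of the sequence and not a binding site, and other spellings of the element were not searched.

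Most of these genes were lower in fibroblasts kept in medium labelled PHD2cko. Of the 32, 25 were lower and 0 higher than in WT medium by edgeR's quasi-likelihood test at an adjusted p under 0.05 (0 were higher at an unadjusted p under 0.05 too), with falls of 11.0% to 38.2%. Among all genes tested 6.75% were lower and 8.93% higher. The median log2 fold change was -0.27 over the 32 genes and -0.0046 over all genes. In each of the 25, all 3 libraries in PHD2cko medium were below all 3 in WT medium, as was the case for 16.5% of all genes. Levels were summed over 19 enzymes, those from acetoacetyl-CoA to cholesterol and Ggps1, which lies on a branch to protein prenylation. The sum was 4252, 3978 and 3822 CPM in WT medium (4017 ± 218, SD, n = 3). It was 3240, 3187 and 3198 CPM in PHD2cko medium (3209 ± 28.0, SD, n = 3).

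**Figure D1:**
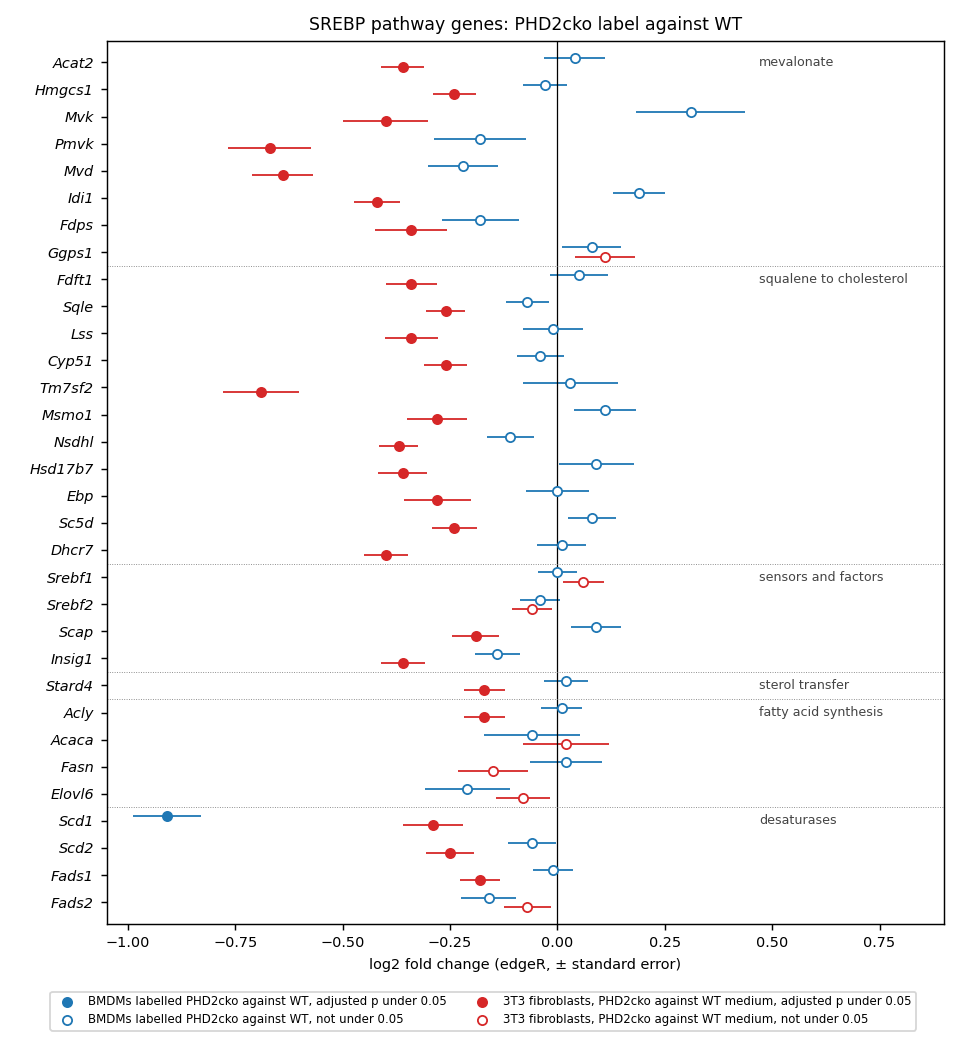
Log2 fold change (x axis, with its standard error) of each of the 32 genes (y axis, in order of role) between libraries labelled PHD2cko and WT, for BMDMs in blue and 3T3 fibroblasts in red, with filled points at an adjusted p under 0.05. In fibroblasts 25 points are filled, all left of 0, and in BMDMs 1 is filled, Scd1 at -0.91.

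The mevalonate arm turns acetyl-CoA into the isoprenoid units of sterols, and 7 of its 8 genes fell (median log2 fold change -0.38). Hmgcs1, which makes HMG-CoA, was at 519, 495 and 473 CPM in WT medium and at 417, 418 and 422 CPM in PHD2cko medium, groups that did not overlap (-0.24, SE 0.0496, adjusted p = 0.00574). Further down, the falls were larger at the kinases and the decarboxylase than at this step, as point estimates whose difference was not tested. Pmvk, phosphomevalonate kinase, went from 58.9, 47.9 and 44.1 CPM to 34.4, 29.9 and 30.7 CPM (-0.67, SE 0.0962, adjusted p = 6.4e-04). Mvd, the decarboxylase that yields isopentenyl diphosphate, went from 121, 110 and 99.4 CPM to 72.9, 70.3 and 69.4 CPM (-0.64, SE 0.0702, adjusted p = 1.4e-04). In both genes the first library in WT medium was the highest, and the lowest WT value was still above the highest value in PHD2cko medium. Without that first library the log2 fold changes were -0.52 for Pmvk and -0.54 for Mvd. They were then -0.25 for the other kinase, Mvk, and -0.19 for Hmgcs1.

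Mvk, mevalonate kinase, was at 83.7, 68.7 and 62.7 CPM in WT medium and at 56.4, 54.3 and 52.6 CPM in PHD2cko medium (-0.40, SE 0.0993, adjusted p = 0.0177). Idi1, the isomerase of isopentenyl diphosphate, was at 288, 272 and 259 CPM and then at 204, 200 and 207 CPM (-0.42, SE 0.0543, adjusted p = 3.0e-04). The groups did not overlap in either gene, and the Mvk call ended without the third library in PHD2cko medium (adjusted p = 0.0764). Without the first WT library Mvk was at -0.25 (adjusted p = 0.0297). Acat2, the cytosolic thiolase that begins the arm, fell from 332, 313 and 303 CPM to 250, 241 and 247 CPM (-0.36, SE 0.0502, adjusted p = 5.0e-04). Of the 31-base words of its annotated transcripts 43.7% also occur in Acat3, so the counting could have split reads between them. Acat3 had only 64 to 110 counts per fibroblast library. Such shared words made up 31.9% in Fdft1 (17.6% with Ctsb), 27.9% in Fdps (24.6% with Gm43738) and 27.1% in Idi1 (18.4% with Gm13502), whose counts carry the same limit, and at most 14.9% in the other members apart from Acaca.

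Fdps, which joins isoprenoid units into farnesyl diphosphate, was at 572, 459 and 437 CPM in WT medium and at 392, 375 and 395 CPM in PHD2cko medium (-0.34, SE 0.0838, adjusted p = 0.0169). Its first WT library was far above the other WT libraries, and without it the log2 fold change was -0.19 (adjusted p = 0.00758). Ggps1, which extends farnesyl diphosphate to the geranylgeranyl group used for protein prenylation, was the exception of the arm. It was at 13.2, 15.2 and 14.9 CPM in WT medium and at 16.1, 15.9 and 14.9 CPM in PHD2cko medium, and these overlapped (0.11, SE 0.0695, adjusted p = 0.328).

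All 11 enzymes from squalene to cholesterol were lower (median log2 fold change -0.34, range -0.69 to -0.24). Sqle (chr15:59315077-59331192 on GRCm38, plus strand), squalene epoxidase, one of the rate-limiting enzymes of the path, was at 446, 436 and 417 CPM in WT medium and at 367, 363 and 358 CPM in PHD2cko medium (-0.26, SE 0.0456, adjusted p = 0.00238). Tm7sf2 (chr19:6062821-6068373, minus strand), a sterol reductase that acts after lanosterol demethylation, had the largest fall of the 32, from 52.9, 45.7 and 46.1 CPM to 31.0, 30.9 and 27.6 CPM (-0.69, SE 0.0892, adjusted p = 3.1e-04). It was at -0.60 without the first WT library, where its level was highest. Its exons overlap those of Vps51 on the same strand, so part of its counts could belong to that gene. Lss, the cyclase that makes lanosterol, was at 260, 307 and 311 CPM and then at 232, 235 and 227 CPM (-0.34, SE 0.0621, adjusted p = 0.00287). Here the first WT library was the lowest of its group, unlike in Pmvk, Mvd and Fdps.

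Nsdhl, a dehydrogenase in the removal of methyl groups, was at 164, 166 and 157 CPM in WT medium and at 126, 127 and 123 CPM in PHD2cko medium (-0.37, SE 0.0447, adjusted p = 2.2e-04). Hsd17b7, a keto-reductase of the same complex, went from 110, 119 and 119 CPM to 92.5, 90.8 and 87.7 CPM (-0.36, SE 0.0568, adjusted p = 0.00109). Dhcr7, which reduces 7-dehydrocholesterol to cholesterol, went from 45.9, 47.2 and 44.4 CPM to 35.9, 34.7 and 33.9 CPM (-0.40, SE 0.0515, adjusted p = 3.2e-04). None of these groups overlapped. The remaining 5, Fdft1, Cyp51, Msmo1, Ebp and Sc5d, had log2 fold changes of -0.34, -0.26, -0.28, -0.28 and -0.24. The call for Ebp, the sterol isomerase, ended in 4 of the 6 fits without 1 library, among them that without the first WT library (-0.16, adjusted p = 0.0995), and that for Msmo1 ended without the first or the third library in PHD2cko medium. Msmo1 was at -0.18 without the first WT library (adjusted p = 0.0190).

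**Figure D2:**
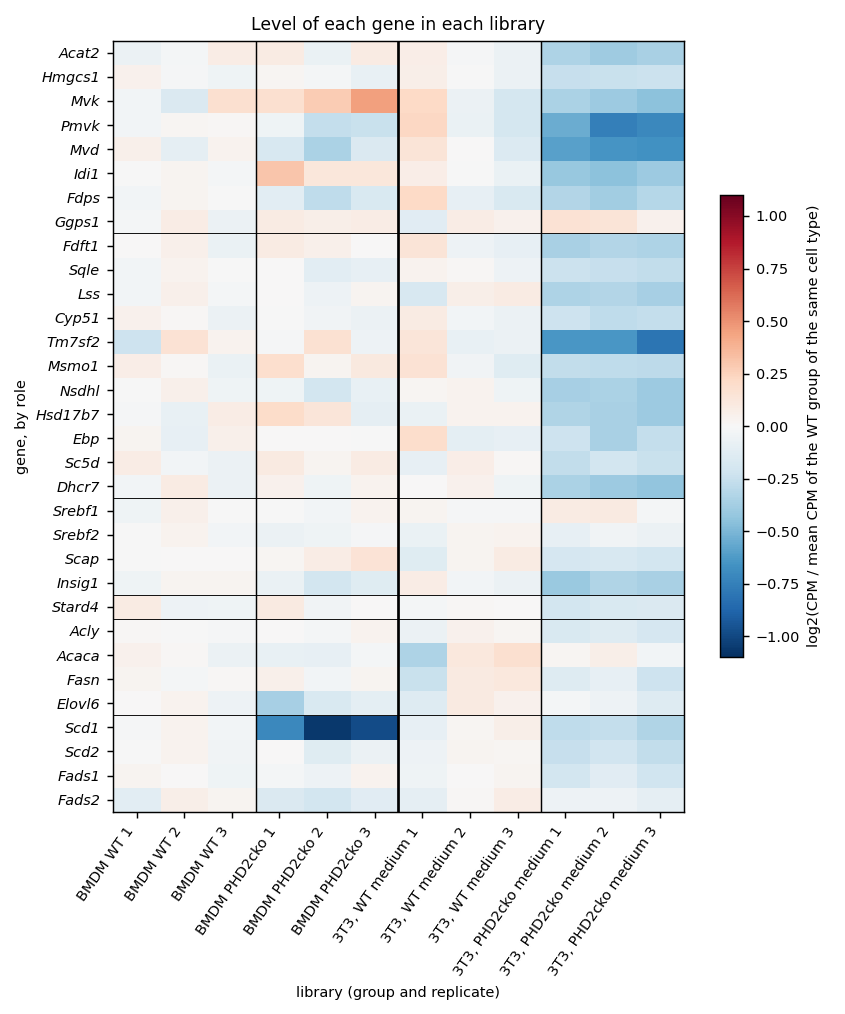
Level of each gene (rows, by role) in each library (columns), as log2 of its CPM over the mean CPM of the WT group of the same cell type. Columns for fibroblasts in PHD2cko medium are blue from Acat2 to Dhcr7 except at Ggps1, and in BMDMs the one strong block is Scd1 in the 3 libraries labelled PHD2cko.

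The sterol sensing genes did not move as one. Insig1 (chr5:28071363-28078662, plus strand), both a target and a brake of the pathway, was at 229, 212 and 206 CPM in WT medium and at 163, 172 and 169 CPM in PHD2cko medium, without overlap (-0.36, SE 0.0510, adjusted p = 5.6e-04). Scap fell by 0.19 on the log2 scale (adjusted p = 0.0365), a call that ended in 5 of the 6 fits that left out 1 library. Srebf2 was at 370, 399 and 401 CPM and then at 367, 380 and 372 CPM, which overlapped (-0.06, SE 0.0463, adjusted p = 0.395). Srebf1 was at 53.0, 51.4 and 51.3 CPM and then at 55.4, 55.7 and 51.1 CPM, which overlapped as well (0.06, SE 0.0477, adjusted p = 0.448). These are transcript levels, and the cut and nuclear forms of the proteins were not measured. Stard4, a cytosolic carrier of cholesterol, fell by 0.17 on the log2 scale (adjusted p = 0.0337) and lost its call in 5 of the 6 fits without 1 library.

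Of the 8 genes of the fatty acid arm 4 were lower with all libraries, and 6 without the first WT library. Whether this arm and the sterol arm differ was not tested. The 4 were Acly, which makes cytosolic acetyl-CoA from citrate, and the desaturases Scd1, Scd2 and Fads1. Scd2, a stearoyl-CoA desaturase, was at 2315, 2450 and 2441 CPM in WT medium and at 2010, 2078 and 1989 CPM in PHD2cko medium (-0.25, SE 0.0553, adjusted p = 0.0101). Scd1, its neighbour and relative, was at 291, 314 and 325 CPM and then at 255, 259 and 247 CPM (-0.29, SE 0.0697, adjusted p = 0.0148). Neither pair of groups overlapped, and both calls ended without the third library in PHD2cko medium. Acly fell by 0.17 (adjusted p = 0.0296) and Fads1 by 0.18 (adjusted p = 0.0219) on the log2 scale, and each lost its call in 4 of the 6 fits without 1 library. With the replicate number as a block the Acly call ended as well.

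For 4 genes of this arm no change was called. Fasn, fatty acid synthase, was at 556, 703 and 712 CPM in WT medium and at 595, 618 and 561 CPM in PHD2cko medium (-0.15, SE 0.0813, adjusted p = 0.239). Acaca, acetyl-CoA carboxylase, was at 195, 268 and 279 CPM and then at 250, 258 and 242 CPM (0.02, SE 0.100, adjusted p = 0.940). In both genes the first WT library lay below every library in PHD2cko medium, and the other WT libraries lay above all of them. Without that WT library Fasn was lower (-0.24, adjusted p = 0.00165) and Acaca turned to lower (-0.11, adjusted p = 0.0452), though 31.7% of the 31-base words of Acaca also occur in Gm5182. Elovl6, which lengthens palmitate, and Fads2, a desaturase of polyunsaturated fatty acids, were at -0.08 and -0.07. In the fits without 1 library they ran from -0.12 to -0.02 and from -0.10 to -0.03.

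In the first WT library many sterol genes had their highest WT value and the fatty acid genes their lowest. Of the 19 mevalonate and sterol enzymes 13 had their highest WT value in it and 4 their lowest. Of the 8 fatty acid genes 0 had their highest and 8 their lowest. Exon length differed as well. The 13 had 1.453 kb (Fdps) to 3.931 kb (Cyp51), and the 4 had 4.383 kb (Ggps1) to 5.046 kb (Hsd17b7). The 8 fatty acid genes had 3.150 kb (Fads2) to 10.050 kb (Fasn). Whether this order goes with the arm or with exon length was not tested. With replicate 1 of WT medium left out, 26 of the 32 genes were lower in PHD2cko medium. With replicate 3 of PHD2cko medium left out, 16 were lower, and 1260 of all genes were called in either direction. Over the fits without 1 library that total ran from 1260 to 2757, so the background moved with the library left out. The share of all genes lower in these fits is not given here. With the 6 fibroblast libraries fitted alone 16 were lower, where 2.59% of all genes tested were lower and 4.23% higher. Those lost in the fit of fibroblasts alone were Mvk, Fdps, Msmo1, Ebp, Sc5d, Scap, Stard4, Acly and Fads1. The log2 fold changes of all 25 genes stayed below 0 in each fit that left out 1 library.

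Macrophage RNA moved with the medium. Its share, estimated from the 23 markers, was 0.0878% ± 0.00142 (SD, n = 3) in WT medium and 1.69% ± 0.983 (SD, n = 3) in PHD2cko medium. The 3 libraries in PHD2cko medium were at 2.38%, 0.560% and 2.12% (exact permutation p = 0.100, two-sided, the smallest that 3 against 3 libraries can give). In WT medium Trem2 had a mean of 16.6 CPM, against 606 CPM in WT BMDMs, and Lyz2 3.04 against 16423 CPM. The share there thus depends on which markers are summed. The library with 0.560% had a sum of 3187 CPM over the 19 enzymes, against 3240 and 3198 CPM in the others, and of 4327 CPM over the 8 fatty acid genes, against 4201 and 4108 CPM. None of the 32 genes was of macrophage type, that is, at least 10 times higher in BMDMs than in fibroblasts in WT medium. With the estimated share subtracted 23 genes were lower, and with genes of macrophage type left out of the fit 23 were, Scap and Stard4 being lost both times. The shares of all genes lower in both fits are not given here, so these counts have no background beside them. In bulk libraries fewer cells and less RNA per cell cannot be told apart.

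**Figure D3:**
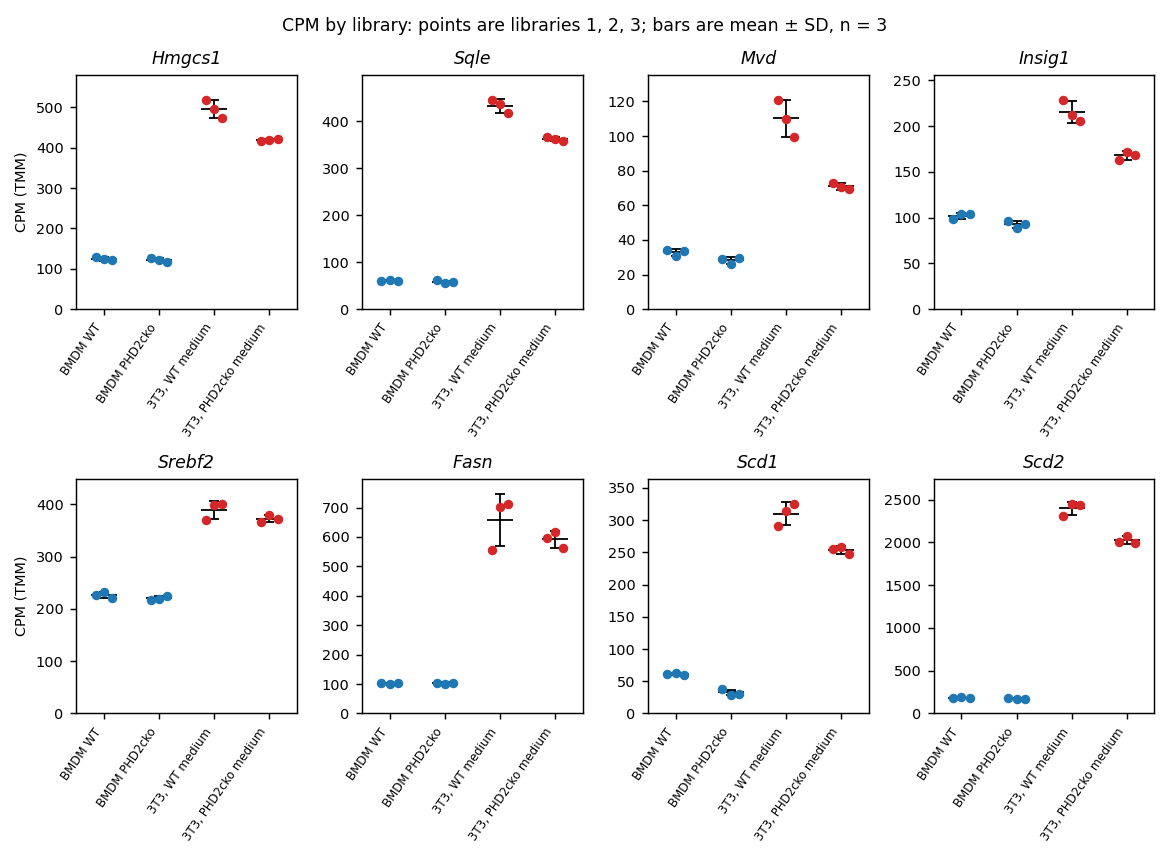
CPM (y axis, from 0) of 8 genes in each library of the 4 groups (x axis), with points for the libraries and bars for the mean ± SD of 3. Hmgcs1, Sqle, Mvd, Insig1, Scd1 and Scd2 are lower in all 3 fibroblast libraries in PHD2cko medium, Srebf2 and Fasn overlap between the media, and in BMDMs Scd1 goes from 60.0 or more to 37.5 or less.

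In BMDMs themselves, with libraries of both cell types fitted together, Scd1 alone of the 32 genes passed the threshold. It was lower and 0 were higher, where 3.35% of all genes tested were lower and 3.38% higher. Scd1, on chromosome 19 (chr19:44394455-44407879, GRCm38, minus strand), was at 60.8, 62.9 and 60.0 CPM in libraries labelled WT and at 37.5, 29.4 and 31.0 CPM in those labelled PHD2cko. The highest PHD2cko value was well below the lowest WT value (-0.91, SE 0.0790, adjusted p = 1.6e-05, a level 46.7% lower). This call held in all 7 other settings and in all 6 fits without 1 library, with log2 fold changes of -1.02 to -0.84 in the latter.

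Scd2, at chr19:44293674-44306864 on the plus strand, was at 182, 188 and 178 CPM in libraries labelled WT and at 184, 167 and 175 CPM in those labelled PHD2cko, so the groups overlapped (-0.06, SE 0.0562, adjusted p = 0.684). Only 8.18% of the 31-base words of Scd1 and 6.81% of those of Scd2 occur in transcripts of other genes, most of them in Scd3. Fads1 was at -0.01 (adjusted p = 0.979) and Fads2 at -0.16 (adjusted p = 0.171). Elovl6 was at -0.21 (adjusted p = 0.284), and Acly, Acaca and Fasn were between -0.06 and 0.02.

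The sterol genes of BMDMs had differences of both signs, and their sum was alike under the labels. The 19 enzymes summed to 847 ± 11.5 CPM (SD, n = 3) in libraries labelled WT and to 846 ± 27.2 CPM (SD, n = 3) in those labelled PHD2cko. Within that sum Mvk (log2 fold change 0.31) and Idi1 (0.19) had all 3 libraries labelled PHD2cko above those labelled WT, and Mvd (-0.22), Fdps (-0.18) and Pmvk (-0.18) had all 3 below, with none of the 5 past the adjusted threshold. Hmgcs1 was at 129, 124 and 121 CPM and then at 127, 123 and 118 CPM, which overlapped (-0.03, adjusted p = 0.875). Sqle was at 59.7, 62.6 and 60.8 CPM and then at 61.1, 56.4 and 57.4 CPM, which overlapped too (-0.07, adjusted p = 0.570). Among these 19, the 11 enzymes from squalene to cholesterol lay between -0.11 and 0.11 on the log2 scale.

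Over all 32 genes 16 log2 fold changes were positive and 16 negative, and 10 genes had groups that did not overlap, 3 higher and 7 lower, beside 31.9% of all genes. At an unadjusted p under 0.05 there were 6 of the 32 genes, a share near the 19.0% of all genes tested. Beside Scd1 these were Mvk (0.31), Idi1 (0.19), Mvd (-0.22), Insig1 (-0.14) and Fads2 (-0.16), of mixed sign. With the 6 BMDM libraries fitted alone 2 genes were higher, Mvk and Idi1, and 4 lower, Scd1, Mvd, Fdps and Insig1, in a fit that called 9.79% of all genes higher and 10.8% lower. Srebf1, at 88.3, 95.0 and 91.1 CPM and then 91.2, 89.6 and 93.9 CPM, and Srebf2, at 226, 233 and 222 CPM and then 217, 220 and 225 CPM, overlapped between labels (adjusted p = 1.00 and 0.714). Insig1 was at 98.6, 104 and 104 CPM and at 96.7, 88.9 and 93.2 CPM, lower in each library labelled PHD2cko (adjusted p = 0.166).

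The difference between the effect in fibroblasts and that in BMDMs was tested for each gene. For 14 of the 32 genes the log2 fold change was lower in fibroblasts and for 1, Scd1, it was higher, where 4.58% and 7.71% of all genes were so. The 14 were 5 of the 8 mevalonate genes, 8 of the 11 from squalene to cholesterol, and Scap. Mvk had a log2 fold change of 0.31 in BMDMs and -0.40 in fibroblasts, a difference of -0.71 (SE 0.162, adjusted p = 0.0121). Idi1 had 0.19 and -0.42, a difference of -0.61 (SE 0.0809, adjusted p = 4.3e-04). For Hmgcs1 the difference of -0.22 (adjusted p = 0.0698) and for Sqle that of -0.19 (adjusted p = 0.0907) did not pass. The 14 became 8 without the third BMDM library of either label or the third library in PHD2cko medium, and 9 without the second BMDM library labelled WT or the first labelled PHD2cko. Cell type, direct deletion or conditioned medium, and 24 h or 72 h of culture differ together in this comparison and cannot be told apart.

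Most of this RNA was at a higher level in the fibroblast libraries than in those of BMDMs. Cell type, genotype, medium with its serum, and 24 h or 72 h of culture differ together here and cannot be told apart. In WT medium 29 of the 32 genes were higher than in WT BMDMs and 3 were lower, in a comparison where 44.9% of all genes were higher and 40.4% lower, with a median log2 fold change of 1.87 for the 32 and 0.0810 for all. Per kilobase of exon the most abundant in BMDMs labelled WT were Fads1 at 58.8, Msmo1 at 50.1 and Fdps at 49.9 CPM per kb. The least abundant there were Hsd17b7 at 2.01 and Elovl6 at 1.82 CPM per kb. In fibroblasts in WT medium the order was led by Scd2 at 440 and Fdps at 337 CPM per kb, followed by Msmo1 at 158 and Sqle at 157, a gap below the spread between libraries, and ended with Ggps1 at 3.29.

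**Figure D4:**
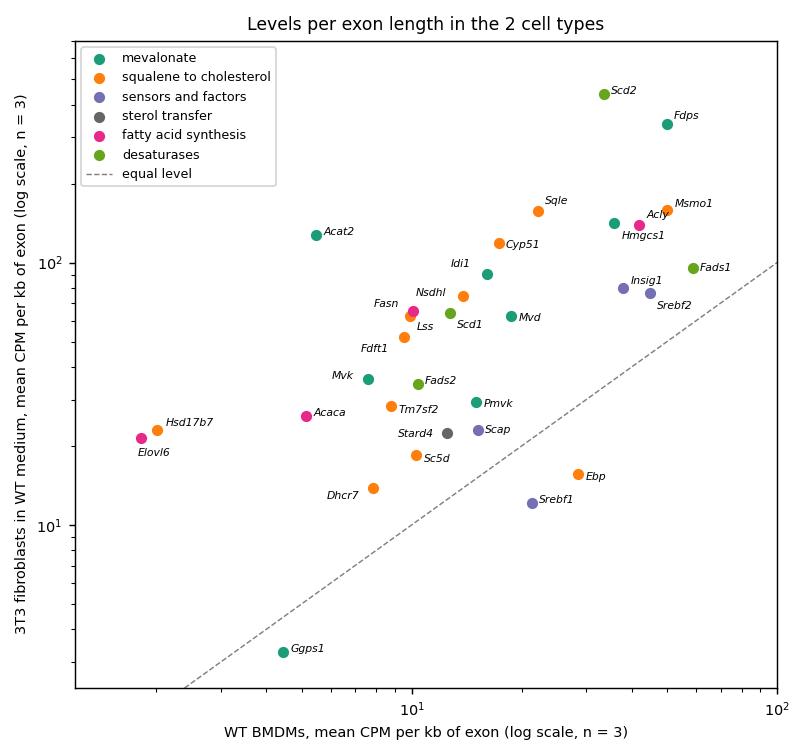
Mean level of each of the 32 genes in WT BMDMs (x axis) and in 3T3 fibroblasts in WT medium (y axis), both in CPM per kb of exon on log scales, coloured by role, with a dashed line at equal level. All but Ggps1, Ebp and Srebf1 lie above the line, with Acat2 farthest above it (log2 fold change 4.53).

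Acat2 had the widest gap, from 13.0, 13.4 and 14.4 CPM in WT BMDMs to 332, 313 and 303 CPM in fibroblasts (log2 fold change 4.53, SE 0.0631, adjusted p = 2.8e-15). Scd2 followed at 3.72, then Elovl6 at 3.55 and Hsd17b7 at 3.51. Of the sensing genes, Srebf2 was higher in fibroblasts (0.78, SE 0.0469) and Srebf1 lower (-0.82, SE 0.0471), and per kb of exon Srebf2 was above Srebf1 in each group, by 44.8 to 21.3 CPM per kb in WT BMDMs and by 76.8 to 12.1 in fibroblasts in WT medium. Ebp was lower in fibroblasts (-0.88) and so was Ggps1 (-0.43).

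Other genes around the pathway were read from lists of 17 further SREBP genes, 9 genes of the liver X receptors (LXRs), which sense oxysterols, and 9 genes of sterol esterification, uptake and release. Of the 14 SREBP genes tested, 4 were lower and 0 higher in fibroblasts in PHD2cko medium, with a median of -0.10, beside 6.75% lower and 8.93% higher among all genes. They were Acss2, an acetyl-CoA synthetase (-0.34), Lpin1, a phosphatidate phosphatase (-0.40), Rdh11 (-0.45) and Acsl3, an acyl-CoA synthetase (-0.20). In BMDMs 1 of the 14 was lower, Acss2 (-0.40), and 1 was higher, Acacb, the mitochondrial acetyl-CoA carboxylase. Acacb was at 0.584, 0.848 and 0.608 CPM in libraries labelled WT and at 6.49, 6.01 and 5.62 CPM in those labelled PHD2cko, a gap of 3.13 on the log2 scale (SE 0.199, adjusted p = 1.2e-06) at a low level. Among all genes in BMDMs 3.35% were lower and 3.38% higher.

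Of the 8 LXR genes tested 0 passed in BMDMs in either direction by edgeR, none of them at an unadjusted p under 0.05. In fibroblasts, where 8.93% of all genes were higher and 6.75% lower, 3 were higher, Abcg1, Smpdl3a and Apoe, all of macrophage type, and 1 was lower, Mylip, a ubiquitin ligase. Mylip was at 96.6, 96.9 and 104 CPM in WT medium and at 68.4, 70.0 and 68.7 CPM in PHD2cko medium (-0.52, SE 0.0477, adjusted p = 6.0e-05). In the third list 3 of 9 were higher in fibroblasts, beside the same shares of all genes, Cd36, Ch25h and Cyp27a1, again at least 10 times higher in BMDMs than in fibroblasts in WT medium, and Scarb1, the HDL receptor, was lower (-0.29, adjusted p = 5.1e-04). Cd36, a scavenger receptor and fatty acid carrier, was the one gene of that list to pass in BMDMs, at 168, 148 and 147 CPM in libraries labelled WT and at 418, 399 and 380 CPM in those labelled PHD2cko (1.37, SE 0.218, adjusted p = 0.00203).

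The genes of these lists were read again in fibroblasts with the estimated macrophage share subtracted. For Abcg1, Smpdl3a, Apoe and Cyp27a1 the counts to be subtracted exceeded those measured in all 3 libraries in PHD2cko medium (1846 against 355 for Apoe in the first), so no test of these genes after subtraction is given. For Cd36 the measured counts were 203, 40 and 221 and those to be subtracted 150, 32 and 143, and it stayed higher (adjusted p = 0.00265), though a share that is too large for Apoe leaves the size of the rest uncertain. The subtraction takes 0 counts of Ch25h, cholesterol 25-hydroxylase, in each library, so it is no test of that gene. Ch25h had 0 counts in each library in WT medium and was at 3.55, 0.694 and 2.91 CPM in PHD2cko medium, a mean of 2.38 CPM that was above its means of 1.28 and 0.699 CPM in BMDMs labelled WT and PHD2cko. These libraries follow the order of the macrophage share, 2.38%, 0.560% and 2.12%, whose part in the result was not tested. After subtraction Pcyt2 of the SREBP list (-0.30, adjusted p = 0.0165, before it -0.23 and 0.0525) and Npc2 of the third list (-0.30, adjusted p = 0.0148, before it -0.25 and 0.0501) were lower too, so that 5 of the 14 SREBP genes were.

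Motif counts can be set beside the calls in fibroblasts. Of the 18 lowered genes with a promoter window 16 held CCAAT, all but Acat2 and Scap, and of the 7 genes not lowered 4 did, against 41.1% of all genes with a window. GGGCGG was in 17 of the 18 and in 3 of the 7, against 38.2% of all genes. The Fasn promoter shown above holds CCAAT although Fasn did not pass with all libraries, and Acat2 fell without this motif. These calls are those of the fit with all libraries, and without the first WT library Fasn passed and Ebp did not. CACGTG was in 5 of the 18 and 0 of the 7, against 8.09% of all genes. These shares are over the 27025 genes with a window, whether or not they were tested here. Shares among tested genes are not given.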

How the data were processed

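RNA of BMDMs and 3T3 fibroblasts had been sequenced after polyA selection, with whether strand was kept not given in the sources used here. The authors deposited estimated counts per gene, made with Kallisto on GRCm38 and given as whole numbers without normalization. All 12 columns were matched to samples by their titles. The members and lists were chosen with earlier results of these data known, so their counts are descriptions. Some genes of the list of further SREBP genes, and a deletion that both genotypes carried, are not reported here.

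Counts were tested with edgeR 4.0.16 in R 4.3.3: filterByExpr with the 4 groups, TMM scaling, all 12 libraries in 1 quasi-likelihood fit, two-sided, with Benjamini-Hochberg adjustment over 14285 genes and a threshold of 0.05. CPM are over TMM-scaled library sizes, and CPM per kb divide them by the exon length in GENCODE M21 basic. All 32 members are reported by role, with values per library for up to 12 members past the threshold in each comparison and for Srebf1, Srebf2, Insig1, Hmgcs1, Sqle, Scd1 and Scd2. The macrophage share is the summed level of 23 markers over that in BMDMs of the same label. For it, levels were counts per 1000000 of the library total without TMM scaling, unlike the marker sums printed above. On that scale the sums were 1021, 240 and 911 in the 3 libraries in PHD2cko medium. Shared words are 31-mers of GENCODE M21 transcripts, which may differ from those the authors used. Replicate numbers did not pair libraries (correlation of deviations of same-numbered libraries -0.12 to 0.04). Alternatives were DESeq2 1.42.0, limma 3.58.1 with voom, other scaling and filters, a replicate block, fewer libraries and removal of macrophage RNA. The fit was also run on simulated counts, with the outcome not given here.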

Additional observations from a re-analysis of the deposited data

Results flagged for a closer look

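The label effect differed between fibroblasts and BMDMs for 15 of the 32 genes, by the edgeR test of the difference itself at an adjusted p under 0.05. As log2 fold change in fibroblasts minus that in BMDMs, the differences were -0.40 for Acat2, -0.71 for Mvk, -0.49 for Pmvk, -0.41 for Mvd and -0.61 for Idi1 in the mevalonate arm. From squalene to cholesterol they were -0.39 for Fdft1, -0.33 for Lss, -0.73 for Tm7sf2, -0.39 for Msmo1, -0.26 for Nsdhl, -0.45 for Hsd17b7, -0.31 for Sc5d and -0.41 for Dhcr7. Scap differed by -0.27, and Scd1 by 0.62, the only difference in which the fall was larger in BMDMs. Groups of 3 libraries are too small for the test of single outlying libraries, which was not run.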

How the results depend on the processing

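Leaving out single libraries, genes of the 32 called lower in fibroblasts numbered 16 to 26 (25 with all libraries, 16 without PHD2cko medium replicate 3), and all genes called there 1260 to 2757 (2240 with all, 1260 and 1319 without PHD2cko medium replicates 3 and 1). Genes of the 32 with a lower effect in fibroblasts than in BMDMs numbered 8 to 17 (14 with all), with 8 without BMDM WT replicate 3, BMDM PHD2cko replicate 3 or PHD2cko medium replicate 3, and 9 without BMDM WT replicate 2 or BMDM PHD2cko replicate 1. All genes called in BMDMs numbered 527 to 664 (961 with all), more than 1.5 times fewer without any library but BMDM PHD2cko replicate 3. Acaca in fibroblasts ran from -0.11 (without WT medium replicate 1, past the threshold) to 0.11. With the 6 libraries of a cell type fitted alone, BMDMs gave 2 of the 32 genes higher, 4 lower and 2534 genes called in all, and fibroblasts 16 lower and 912 in all. These fits take the spread from that cell type alone, and the fit of all libraries takes it from both cell types. How much of the change in counts comes from this was not tested. With a replicate block 24 of the 32 were lower in fibroblasts, Acly being lost, 1 lower in BMDMs and 14 in the difference, and no other call in the label comparisons changed. DESeq2 and limma-voom each called 25 lower and 0 higher in fibroblasts and 1 lower and 0 higher in BMDMs. With DESeq2 size factors in edgeR, or at least 10 counts in every library, 25 were lower in fibroblasts, and with no filter beyond 1 count 21, Acly, Fads1, Scap and Stard4 being lost, while BMDMs had 1 lower and 0 higher in each. In the difference those 3 settings gave 12, 13 and 11 genes lower, and the macrophage share subtracted 10. Where no total of all genes called is printed, the counts of the 32 in this section have no background beside them. Sign changes of genes called in neither fit are not counted here as reversals. Depth limits what can be said of the lowest genes, of which none of the 32 was below 8.68 CPM in any library.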
